A study of Mus musculus with 9 samples.

Results

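The mitochondrial ribosomal protein genes of the mouse were followed in white adipose tissue of lean and obese mice and of obese mice given a plant extract. The members were all rows of the deposited array table whose platform gene symbol begins with Mrpl or Mrps followed by a number. The rule found 76 genes of the 19505 genes with a symbol, 48 named Mrpl for the large subunit and 28 named Mrps for the small subunit, and each of the 76 was measured by 1 row. The rule uses the symbol alone.

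Mitochondria keep ribosomes of their own, which translate the few messages of the mitochondrial genome, all of them for subunits of the respiratory chain and the ATP synthase. The ribosomal RNAs of this particle come from mitochondrial DNA, but every protein of it is encoded in the nucleus, made in the cytosol and imported. Some of these proteins descend from those of the bacterial ribosome and others were added in mitochondria. In fat cells, mitochondria burn fuel and also supply carbon for the synthesis and turnover of stored lipid. The symbols do not map fully onto the 2 subunits: by structure, Mrps30 and Mrps18a sit in the large subunit, and Mrps36 is a component of the 2-oxoglutarate dehydrogenase complex rather than of the ribosome. By structure the set therefore held 50 large subunit and 25 small subunit genes. Of these 75, 45 were classed as having a bacterial counterpart and 30 as specific to mitochondria. Mrps18a and Mrps18b, diverged copies of a bacterial ancestor they share with Mrps18c, were counted among the 30.

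All mice were male, were 6 weeks old when obtained and ate standard chow. The wild type group was the strain C57BL/6JHamSlc-+/+ given vehicle. The ob/ob vehicle group was C57BL/6JHamSlc-ob/ob, which lacks functional leptin in every tissue and becomes obese, and it was also given vehicle. The VE group was of the same ob/ob strain and received VE, a Vigna umbellata (rice bean) extract, at 100 mg/kg body weight by gavage over 6 weeks, so that a wild type group given VE is not part of the comparisons. Each group had 3 arrays (Clariom S), for which the series text gives 3 mice. The fat depot and the composition of the vehicle were not stated. The comparisons asked how the obese differ from the lean mice and what the extract changed in the obese mice, and the ob/ob vehicle and wild type arrays each serve as control in 2 of the 3 comparisons.

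Array medians were closely matched, from 6.11 to 6.26 (log2 signal), and 3 arrays per group set the precision of all values below. Median signals of 14 measured adipocyte markers lay between 15.16 and 16.67 on all 9 arrays, and both ends were wild type arrays. Their median difference from wild type was 0.46 in ob/ob vehicle and 0.72 in VE mice, with 13 of the 14 above 0 in each. Relative to each gene's mean over the 9 arrays, their median was -0.54, -1.03 and 0.33 on wild type arrays 1 to 3. Without wild type arrays 1 and 2 the median differences were -0.18 and 0.07. Wild type arrays 1 and 2 stood apart: the median signal of 16 epithelium markers was 8.76 and 9.29 there, 6.75 on wild type array 3 and 4.25 to 4.84 on the 6 ob/ob arrays, and that of 9 smooth muscle markers was 12.74 and 15.83, 8.82, and 7.64 to 8.10. Macrophage markers, of which 19 were measured, had medians of 8.35 to 9.92 in wild type, 12.74 to 13.29 in ob/ob vehicle and 12.08 to 13.33 in VE mice. Markers of adipocytes and of other cells thus differed between lean and obese mice. In bulk tissue fewer cells of a type and less RNA per cell cannot be told apart. The part of these cells in the values of the mitochondrial ribosomal protein genes was not tested. Differences from wild type are also given below without wild type arrays 1 and 2. Wild type array 3 is then the only lean array. These differences therefore carry no spread among lean mice and are given as effect sizes without a test.

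The 76 genes lie on 17 chromosomes and are short, with a median genomic span of 7690.5 bp against 17787 bp for all 19572 rows tested. Their mean log2 signals ranged from 4.89 to 11.76. Of the 76, 62 were above the median of the array on all 9 arrays and 3 on none of them. The highest signals were those of Mrpl42, Mrpl48 and Mrpl27 and the lowest those of Mrpl36, Mrpl46 and Mrpl54. Since probes differ in their response, these signals do not rank the transcripts of different genes, and detection calls were not used here.

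RefSeq promoter windows (assembly GRCm38.p6, 250 bases before to 50 bases after the annotated start) were matched to 67 of the 76 genes. They were searched on both strands for the core letters bound by regulators of nuclear genes for mitochondria: CGCATGCG for NRF1, CCGGAAG for the ETS factor GABPA, and AAGATGGCG for YY1. The NRF1 core was in 7 of the 67 windows (10.45%), the ETS core in 24 (35.82%) and the YY1 core in 8 (11.94%), against 2.62%, 12.21% and 2.06% of the 15691 windows matched to genes of the array. At least 1 of the 3 was in 34 windows (50.75%, against 15.93%). The members' windows were also richer in CG, with a median of 7.0 CG per 100 bases against 4.67, and these counts are descriptions of letters only. An annotated start on the opposite strand lay within 1000 bases upstream in 26 members (38.81%, against 12.89%).

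The 120 bases before the start are shown for 5 genes whose values are described below, 5′ to 3′ on the strand of the gene with the core letters in capitals, followed by the stretch between the starts of 1 pair of members. Mrpl32 (chr13:14613038-14613157, minus strand) has 2 NRF1 cores, Mrpl34 (chr8:71464806-71464925, plus strand) and Mrpl52 (chr14:54426789-54426908, plus strand) have an ETS core, and Mrpl12 (chr11:120484517-120484636, plus strand) and Mrps15 (chr4:126046808-126046927, plus strand) have none of these letters in the stretch. Mrpl46 and Mrps11, of the large and the small subunit, start 42 bases apart in opposite directions, and the stretch chr7:78783090-78783130 between them is given on the plus strand.
Mrpl32: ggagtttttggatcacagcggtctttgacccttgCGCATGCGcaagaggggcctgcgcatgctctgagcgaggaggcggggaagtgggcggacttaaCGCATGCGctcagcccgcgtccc
Mrpl34: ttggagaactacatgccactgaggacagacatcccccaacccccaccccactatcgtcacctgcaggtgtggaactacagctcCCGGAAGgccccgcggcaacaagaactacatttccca
Mrpl52: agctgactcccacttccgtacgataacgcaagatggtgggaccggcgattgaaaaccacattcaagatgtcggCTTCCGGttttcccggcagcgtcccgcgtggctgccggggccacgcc
Mrpl12: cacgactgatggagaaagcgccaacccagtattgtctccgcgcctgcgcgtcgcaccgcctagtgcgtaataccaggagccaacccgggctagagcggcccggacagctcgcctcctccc
Mrps15: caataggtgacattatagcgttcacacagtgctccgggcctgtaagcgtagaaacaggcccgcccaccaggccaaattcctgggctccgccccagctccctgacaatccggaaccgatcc
Mrpl46 to Mrps11: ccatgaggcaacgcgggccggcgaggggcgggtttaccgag

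In ob/ob vehicle against wild type mice, 3 large subunit genes were higher in the obese mice, and no small subunit gene passed the test in either direction. The genes were Mrpl13, an early assembling core protein, Mrpl10, the base of the stalk that receives translation factors, and Mrpl32, a protein that must be cut by a protease of the inner membrane before it joins the ribosome. A call is an adjusted p under 0.05 in limma's moderated test, adjusted by Benjamini-Hochberg over all 19572 rows. Of the 76, 3 were higher, 0 lower and 73 did not pass, whereas 9.02% of all rows were called higher and 5.05% lower, so the share of members called was below the background in both directions. At an unadjusted p under 0.05, 9 members were higher (1 of them Mrps) and 4 lower (2 of them Mrps), against 15.7% and 12.7% of all rows. The median difference of the 76 was 0.17 on the log2 scale, against -0.04 over all rows, and 50 members lay above 0 (65.8%, against 47.4% of all rows).

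Mrpl13 read 8.04, 8.93 and 8.79 on wild type arrays 1 to 3 and 10.93, 9.99 and 9.85 in ob/ob vehicle mice. The groups did not overlap, and ob/ob array 1 was the highest of the 6. The difference was 1.67 ± 0.38 (SE) on the log2 scale, or 3.18-fold, with a limma adjusted p of 0.0154. Mrpl32 read 7.53, 7.27 and 7.76 in wild type and 8.96, 8.28 and 8.39 in ob/ob vehicle mice, a difference of 1.02 ± 0.29 (SE, limma adjusted p = 0.0396). Mrpl10 read 6.89, 6.82 and 7.49 in wild type and 8.51, 7.91 and 7.81 in ob/ob vehicle mice, a difference of 1.01 ± 0.28 (SE, limma adjusted p = 0.0360). In both genes the groups did not overlap and ob/ob array 1 was again the highest.

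Other members came close to the threshold in both directions without passing it. Mrpl9, a core protein of the large subunit that in bacteria reaches out from its side, read 9.26, 9.04 and 8.67 in wild type and 8.38, 8.17 and 7.86 in ob/ob vehicle mice, a difference of -0.85 ± 0.26 (SE, limma adjusted p = 0.0598). Mrps10, in the head of the small subunit, differed by 0.88 ± 0.28 (SE, limma adjusted p = 0.0679). The groups did not overlap in either gene. Among the other members with the most extreme statistics, Mrps28 differed by 0.78, Mrpl51 by -0.66, Mrps24 by -0.78 and Mrps27 by -0.71, with limma adjusted p between 0.121 and 0.187. Groups did not overlap in 12 members with the obese mice higher and in 5 with them lower, against 15.7% and 13.1% of all rows.

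The calls of this comparison rested on few arrays. Without ob/ob vehicle array 1, 0 members were called and the median difference was 0.02, and without ob/ob array 2 it was 0.30. Without wild type arrays 1 and 2 the median was 0.05, and Mrpl13, Mrpl32 and Mrpl10 differed by 1.47, 0.78 and 0.59. Over the 9 fits that left out 1 array each, Mrpl13 was called in 8, Mrpl32 in 2 and Mrpl10 in 1. After quantile normalization 2 members were higher (Mrpl10, Mrpl13) and 2 lower (Mrpl9, Mrpl51), with a median of 0.07.

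Between VE and ob/ob vehicle mice no member was called. limma called 0 of 76 in either direction, at a background of 0.0255% of rows higher and 0 lower, and at an unadjusted p under 0.05 there were 17 members higher in VE and 1 lower, against 2.91% and 1.66% of all rows. Most members nevertheless read above the ob/ob vehicle mean in VE mice: 65 lay above 0, 10 below and 1 at 0 (85.5% above, against 46.5% of all rows). The median difference was 0.40, against -0.02 over all rows. Groups did not overlap in 19 members with VE higher and in 1 with VE lower, against 5.77% and 6.79% of all rows.

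The smallest p-values belonged to a pair of large subunit genes. Mrpl52, of the central protuberance that contacts the small subunit, read 6.21, 5.38 and 5.59 in ob/ob vehicle and 7.40, 7.43 and 7.57 in VE mice. The difference was 1.74 ± 0.26 (SE), or 3.34-fold, with a limma adjusted p of 0.0734. Mrpl33, a core protein kept from bacteria, read 11.17, 10.31 and 10.35 in ob/ob vehicle and 12.87, 12.74 and 12.56 in VE mice. The groups were well separated in both genes, and ob/ob array 1 was the vehicle array nearest to the VE values. The difference of Mrpl33 was 2.11 ± 0.32 (SE), or 4.33-fold, with a limma adjusted p of 0.0804. Without ob/ob array 1 both genes passed, at limma adjusted p of 0.0305 for Mrpl52 and 0.0409 for Mrpl33. Each was called in that 1 of the 9 fits without 1 array. The limma adjusted p rose to 0.438 for Mrpl52 without ob/ob array 3 and to 0.538 for Mrpl33 without ob/ob array 2. Over these fits 0 to 2 members were called. With all arrays kept, Mrpl33 was called when only the 2 groups compared were fitted, and Mrpl33 and Mrpl52 with array weights. The other settings with all arrays and the same threshold called no member in this comparison.

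Mrpl34, a short basic core protein, read 7.48, 6.40 and 7.34 in ob/ob vehicle and 8.57, 8.62 and 8.54 in VE mice, a difference of 1.50 ± 0.33 (SE, limma adjusted p = 0.377). Mrpl58, a ribosome-bound enzyme that releases stalled chains, differed by 1.19 ± 0.30 (SE, limma adjusted p = 0.548). Mrpl54 differed by 1.37 ± 0.36 (SE, limma adjusted p = 0.589), with ob/ob array 2 at 3.55 far below the other arrays of its group, at 4.89 and 4.62. In these 3 genes every VE array lay above every ob/ob vehicle array. The ob/ob vehicle values of Mrpl54, and those of Mrpl52 on arrays 2 and 3, lay below the lowest array median of 6.11. Without detection calls, signals this low cannot be told from background.

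Of the small subunit, Mrps15 and Mrps10 had the most positive statistics. Mrps15, which binds the ribosomal RNA of the subunit, read 6.70, 5.74 and 6.16 in ob/ob vehicle and 7.15, 7.04 and 7.71 in VE mice, a difference of 1.10 ± 0.29 (SE, limma adjusted p = 0.600). Mrps10 read 8.04, 8.44 and 8.28 in ob/ob vehicle and 9.32, 9.12 and 9.41 in VE mice, a difference of 1.03 ± 0.28 (SE, limma adjusted p = 0.625). The lowest difference of all members was that of Mrps5, a protein near the entry of the messenger, at -0.52 ± 0.20 (SE, limma adjusted p = 0.973). Its VE values of 8.78, 8.86 and 8.93 lay below the ob/ob vehicle values of 9.47, 9.31 and 9.36, the reverse of the order of most members. Mrpl9, Mrpl44 and Mrps31 differed by -0.26, -0.25 and -0.23, with SEs of 0.26, 0.38 and 0.25.

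**Figure D1:**
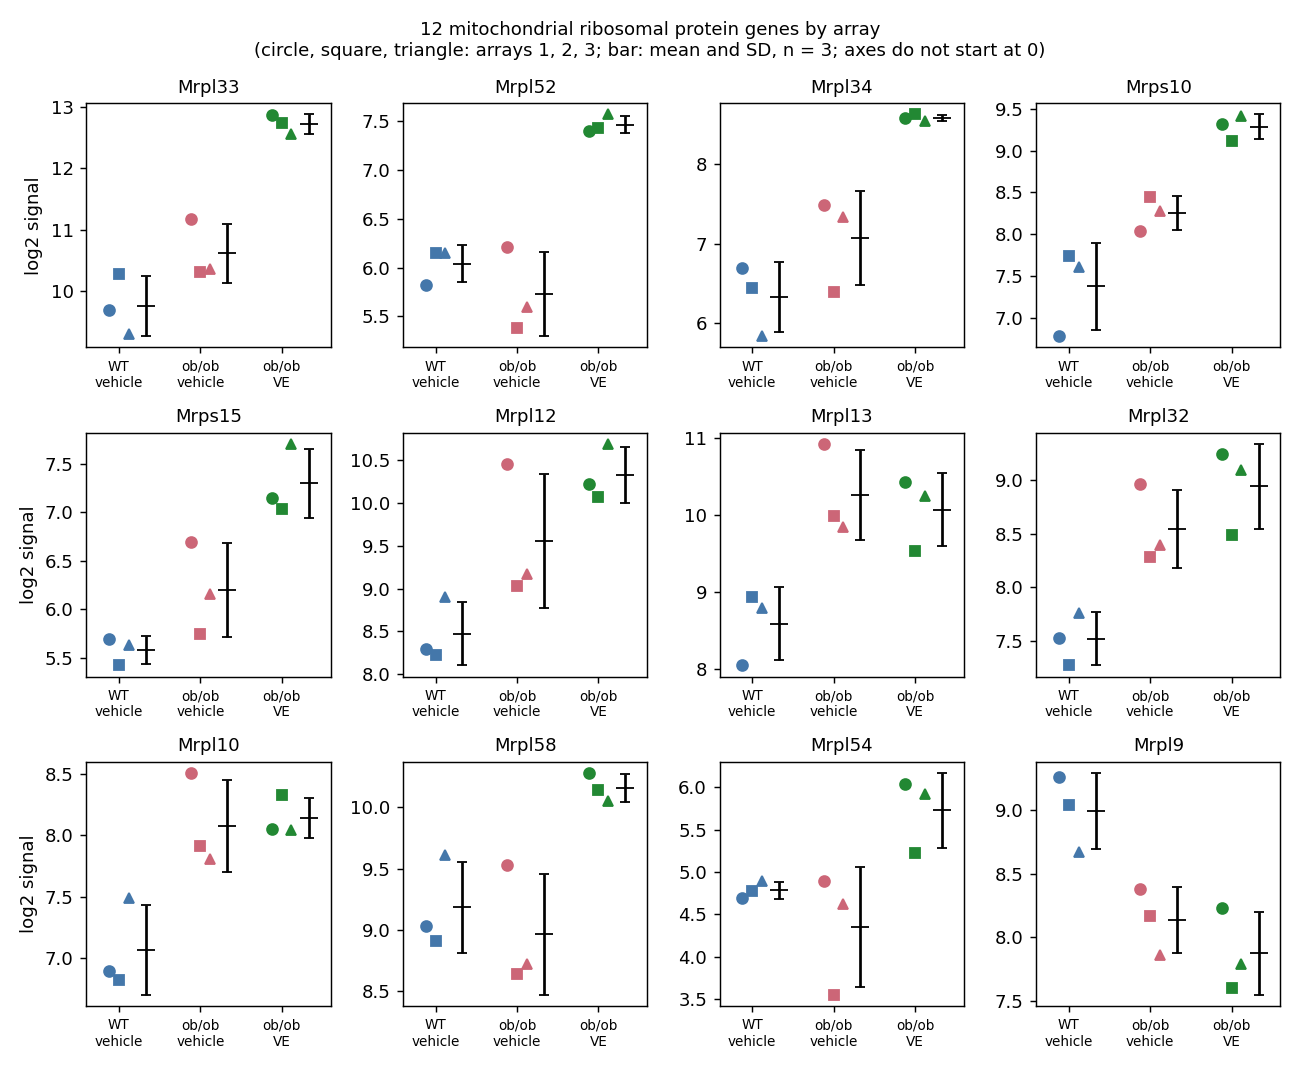
Log2 signal of 12 members on each array, by group (circle, square and triangle are arrays 1, 2 and 3 of a group, the bar is the mean with its SD, n = 3, and axes do not start at 0). In Mrpl33 the VE arrays read 12.56 to 12.87 and no other array exceeded 11.17, whereas in Mrpl13 and Mrpl10 the VE and ob/ob vehicle arrays overlap above wild type and in Mrpl9 they overlap below it.

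The ob/ob vehicle arrays differed among themselves in these genes. When each member was expressed relative to its own mean over the 9 arrays, the median over the 76 was 0.23 on ob/ob vehicle array 1, -0.40 on array 2 and -0.21 on array 3. The wild type arrays were at -0.32, -0.27 and -0.14 and the VE arrays at 0.49, 0.23 and 0.22, so that ob/ob vehicle array 1 lay within the VE range. In 54 of the 76 members (71.1%) array 1 was the highest of the 3 ob/ob vehicle arrays, against 36.3% of all rows. The median SD of a member was 0.469 in ob/ob vehicle, 0.333 in wild type and 0.287 in VE mice. Over all rows these SDs were 0.296, 0.407 and 0.257, so the members varied more than the typical row among ob/ob vehicle mice and less among wild type mice. Without ob/ob array 1 the median difference of VE from ob/ob vehicle was 0.61, and without array 2 it was 0.25.

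**Figure D2:**
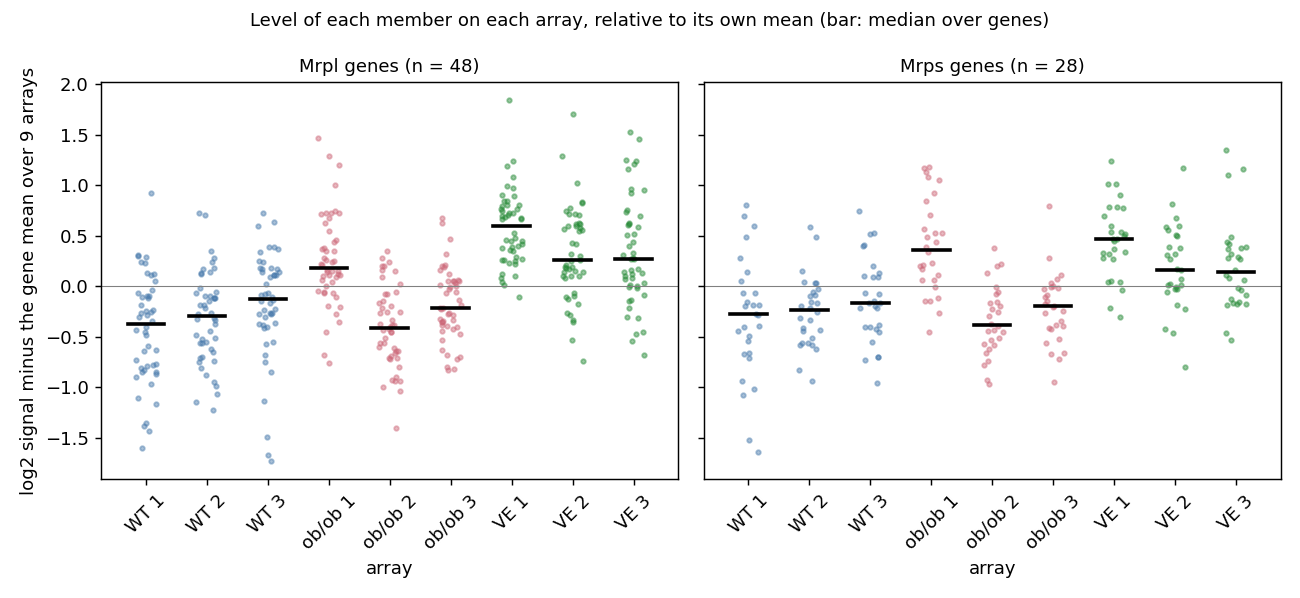
Log2 signal of each member on each array minus its mean over the 9 arrays, for the 48 Mrpl genes (left) and the 28 Mrps genes (right), with a point per gene and a bar at the median. In both panels ob/ob vehicle array 1 lies near the VE arrays, while ob/ob arrays 2 and 3 lie near the wild type arrays.

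VE mice were also set against wild type mice, a comparison that differs in both genotype and treatment and shares its arrays with the comparisons above. Here 16 members were higher in VE mice, 1 was lower and 59 did not pass, against a background of 12.4% of rows higher and 7.58% lower. The share of members called higher was 21.1%. The median difference was 0.58, against -0.07 over all rows, and 63 members lay above 0 (82.9%, against 45.4%). Groups did not overlap in 37 members with VE higher and in 2 with VE lower, against 19.5% and 17.7% of all rows.

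The members that were higher came from the core inherited from bacteria and from later additions alike. Mrpl33, at 9.68, 10.28 and 9.30 in wild type mice, had the largest difference, 2.97 ± 0.32 (SE) or 7.84-fold, with a limma adjusted p of 2.30e-04. Mrpl34 read 6.70, 6.45 and 5.84 in wild type mice and differed by 2.25 ± 0.33 (SE, limma adjusted p = 0.00136). Mrps10 read 6.78, 7.74 and 7.61 and differed by 1.91 ± 0.28 (SE, limma adjusted p = 0.00147). In all 3 genes the mean of the ob/ob vehicle group lay above that of wild type and below that of VE, although the 6.40 of Mrpl34 on ob/ob vehicle array 2 was lower than 2 of its wild type values.

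Mrpl57, which has no bacterial counterpart, was higher by 1.88 ± 0.44 (SE, limma adjusted p = 0.0149), with wild type arrays at 9.56, 9.56 and 8.37 and VE arrays at 11.23, 10.60 and 11.29. Mrpl12, the stalk protein that is also known to bind the mitochondrial RNA polymerase, was higher by 1.85 ± 0.39 (SE, limma adjusted p = 0.00869). It read 8.29, 8.23 and 8.90 in wild type, 10.45, 9.03 and 9.17 in ob/ob vehicle and 10.22, 10.07 and 10.69 in VE mice. The single ob/ob vehicle array 1 thus lay among the VE arrays, and the ob/ob vehicle group did not pass against either other group.

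Mrps15 was higher by 1.72 ± 0.29 (SE, limma adjusted p = 0.00315), Mrpl43 by 1.63 ± 0.38 (SE, limma adjusted p = 0.0139) and Mrpl13 by 1.48 ± 0.38 (SE, limma adjusted p = 0.0211). The other members called higher were Mrpl52, Mrpl32, Mrpl30, Mrpl35, Mrpl38, Mrpl10, Mrpl58 and Mrps18c, with differences of 0.73 to 1.43. The member that was lower was Mrpl9. It read 8.23, 7.60 and 7.79 in VE mice against 9.26, 9.04 and 8.67 in wild type, a difference of -1.12 ± 0.26 (SE), or 2.17-fold lower, with a limma adjusted p of 0.0155. Among the other lowest statistics, Mrps31 differed by -0.75, Mrps27 by -0.53 and Mrpl24 by -0.43, and none of these passed.

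Over the 9 fits without 1 array, 10 to 22 members were called. Of the 17, Mrpl12, Mrpl32, Mrpl33, Mrpl34, Mrpl35, Mrpl38, Mrpl52, Mrps10 and Mrps15 were called in all 9 fits, Mrpl10 and Mrps18c in 4 and Mrpl58 in 2. The count was 10 without VE array 3 and 11 without VE array 1. Without wild type arrays 1 and 2, the 16 members called higher with all arrays differed by 0.55 to 3.42, and Mrpl9 by -0.80. The median difference was then 0.415. Quantile normalization gave 14 higher and 2 lower and a median of 0.37. Over all 3 groups together, limma's moderated F test passed 16 of the 76 members, against 15.7% of all rows.

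**Figure D3:**
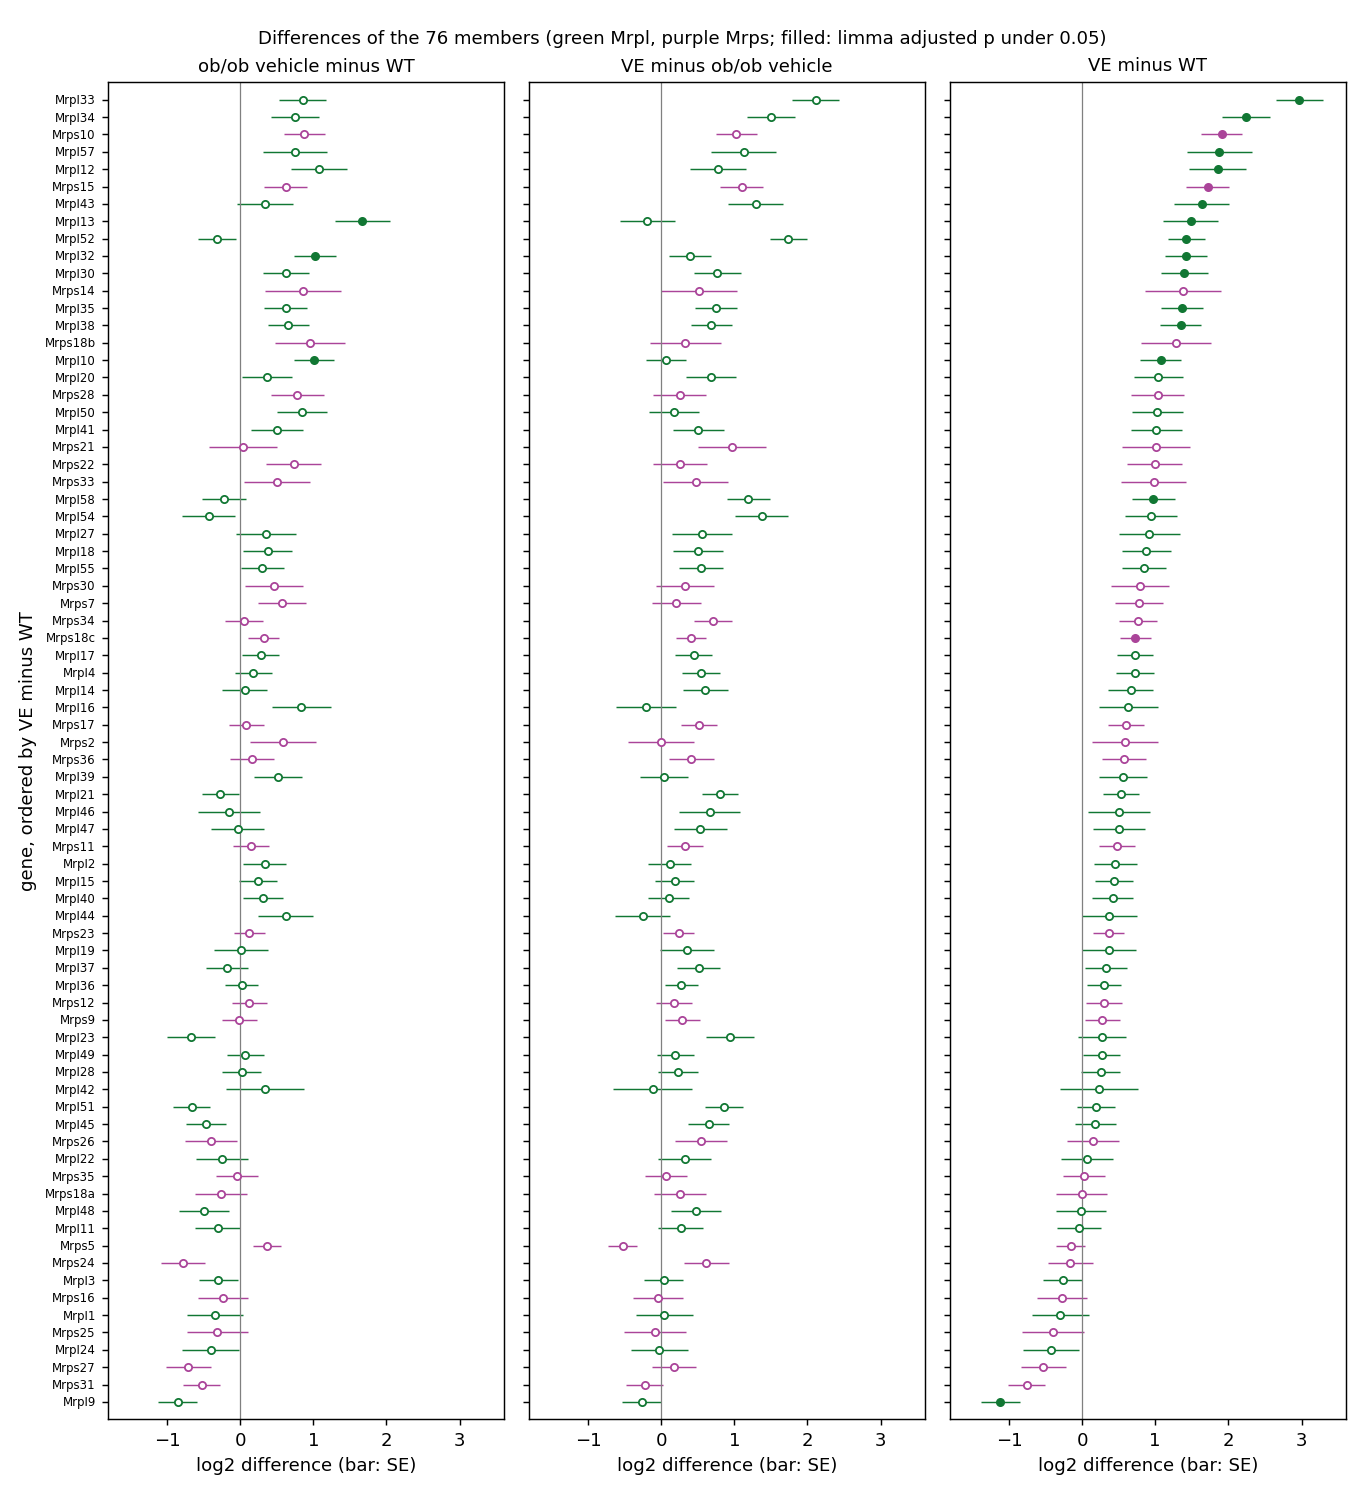
Log2 difference with its SE of each of the 76 members in the 3 comparisons, ordered by the difference of VE from wild type mice (green Mrpl, purple Mrps, filled where the limma adjusted p is under 0.05). Filled points are 3 in the left panel, 0 in the middle panel and 17 in the right panel, with Mrpl33 at the top and Mrpl9 at the bottom of the order.

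The 2 subunits were compared next. In ob/ob vehicle against wild type mice the median difference was 0.27 for the 48 Mrpl genes and 0.14 for the 28 Mrps genes, and 3 against 0 genes were called. Other settings did call a small subunit gene here: Mrps10 was higher after median centring and without wild type array 2, Mrps18b was higher without ob/ob vehicle array 3, Mrps5 was higher without empirical Bayes (the 1 call of that setting) and Mrps27 was lower without wild type array 3. In VE against ob/ob vehicle mice the medians were 0.51 and 0.31, and the share of genes above 0 was 87.5% and 82.1%. In VE against wild type mice 13 Mrpl genes were higher and 1 lower (27.1% and 2.08%), while 3 Mrps genes were higher and 0 lower (10.7%), with medians of 0.60 and 0.58. These medians were 0.54 and 0.29 after quantile normalization and 0.68 and 0.48 without wild type array 2. With wild type arrays 1 and 2 left out both were 0.415. The difference in the share of calls was not tested.

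Within an array, the median centred level of the Mrpl genes minus that of the Mrps genes was -0.178, -0.029 and -0.015 in ob/ob vehicle, -0.097, -0.058 and 0.044 in wild type, and 0.132, 0.094 and 0.133 in VE mice. The VE arrays lay above all other arrays, while ob/ob vehicle and wild type arrays overlapped. The offset was 0.120 ± 0.022 (SD, n = 3) in VE mice and -0.074 ± 0.090 in ob/ob vehicle mice. With the subunits assigned by structure it was 0.095 ± 0.058 and -0.062 ± 0.056. The difference between the subunits' medians in VE against ob/ob vehicle mice, 0.20, was 0.03 without ob/ob vehicle array 1, 0.14 without array 2 and 0.15 without array 3. By structure it was 0.205 with all arrays, and 0.0967, 0.0617 and 0.0942 without array 1, 2 and 3 in turn.

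Grouped by origin, 3 of the 45 genes with a bacterial counterpart were above wild type in ob/ob vehicle mice and 0 below (6.67%, where all rows had 9.02% higher and 5.05% lower). In VE against wild type mice 11 of the 45 were higher and 1 lower (24.4% and 2.22%, against 12.4% and 7.58% of all rows). Of the 30 classed as specific to mitochondria, 0 were called in ob/ob vehicle against wild type mice, and 5 were higher and 0 lower in VE than in wild type mice (16.7%). Without wild type arrays 1 and 2, the medians were 0.12 with a bacterial counterpart and 0.01 without in the first comparison. In the second they were 0.40 and 0.415. The medians of the difference between VE and ob/ob vehicle were equal at 0.40 in both groups. In ob/ob vehicle against wild type mice they were 0.28 with a bacterial counterpart and 0.06 without. The difference between these medians was not tested.

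Some members were also read by their place in the particle, a grouping made after the values were seen. In VE against wild type mice 21.1% of all members and 12.4% of all rows were called higher. In the stalk, Mrpl10 and Mrpl12 were higher in VE than in wild type mice, while Mrpl11 differed by -0.04 ± 0.30 (SE). Of the 7 genes of the central protuberance, 3 were higher in VE than in wild type mice (Mrpl38, Mrpl52 and Mrpl58). All 7 had a positive difference between VE and ob/ob vehicle, from 0.10 to 1.74, as had 85.5% of all members and 46.5% of all rows. At the rim of the tunnel through which the new chain leaves, 1 of 7 was higher, Mrpl32. Mrpl45, which docks the ribosome to the inner membrane, differed by 0.18 ± 0.28 (SE) and Mrpl24 by -0.43 ± 0.39 there. In the head of the small subunit, 1 of 8 was higher in VE than in wild type mice, Mrps10, and the differences ranged from -0.75 for Mrps31 to 1.91. Without wild type arrays 1 and 2, Mrpl38, Mrpl52 and Mrps10 differed by 1.36, 1.32 and 1.67 in this comparison. Mrpl10, Mrpl12, Mrpl58 and Mrpl32 then differed by 0.65, 1.43, 0.55 and 1.18.

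The 3 Mrps18 genes, which are copies of 1 bacterial ancestor and whose products occupy separate sites, were read one by one. Mrps18c, of the small subunit, read 10.18, 10.41 and 10.22 in wild type, 10.82, 10.43 and 10.52 in ob/ob vehicle and 10.99 to 11.01 in VE mice. It was higher in VE than in wild type mice by 0.73 ± 0.21 (SE, limma adjusted p = 0.0332), and differed by 0.78 without wild type arrays 1 and 2. Mrps18b varied widely among ob/ob vehicle mice, with an SD of 1.08 around a mean of 9.15, and differed between VE and wild type by 1.28 ± 0.48 (SE, limma adjusted p = 0.0881). Mrps18a differed by -0.01 ± 0.35 (SE). Mrps30 differed by 0.79 ± 0.40 and Mrps36 by 0.58 ± 0.30 in the same comparison, neither passing, and leaving out Mrps36 changed the median of the members by less than 0.01 in each comparison.

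Other genes of mitochondrial protein synthesis were read from lists made by function. Of 4 measured proteins of the same ribosome whose symbols fall outside the rule (Dap3, Chchd1, Ptcd3 and Gadd45gip1), 0 were called in any comparison, and at an unadjusted p under 0.05 limma gave Ptcd3 alone as higher in either ob/ob group than in wild type mice. Of 28 genes for assembly of the ribosome and modification of its RNA, Ddx28, a helicase of large subunit assembly, was above wild type in ob/ob vehicle mice by 1.24 ± 0.32 (SE, limma adjusted p = 0.0284). It and Mpv17l2, an inner membrane protein needed for assembly, were higher in VE than in wild type mice, by 1.61 and 1.93, and no gene of the list was lower. Of 16 translation factors, the elongation factor gene Gfm1 was the 1 called, higher in both ob/ob groups than in wild type mice, by 1.53 and 1.47. Of 19 genes for charging mitochondrial transfer RNA, the 1 called was Gatc, a subunit of the amidotransferase that makes glutaminyl-tRNA, higher by 1.29 and 1.27. The shares called higher in the assembly, translation factor and charging lists were 3.57%, 6.25% and 5.26% in ob/ob vehicle mice, below the 9.02% of all rows. In VE mice they were 7.14%, 6.25% and 5.26%, below the 12.4% of all rows. Without wild type arrays 1 and 2, a setting added after these values were seen, Mpv17l2 differed by 2.34 between VE and wild type mice. Ddx28, Gfm1 and Gatc then differed by 0.60 to 0.97 in both ob/ob groups.

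Genes for the transcription and replication of mitochondrial DNA moved both ways. Of 12 measured, the elongation factor gene Tefm was above wild type in ob/ob vehicle mice by 1.09, and Tfam, which packages the DNA, and Ssbp1, which binds single strands of it, were lower by log2 differences of -1.01 and -1.14. In VE against wild type mice Tefm and Tfb2m were higher and Ssbp1 was lower. The shares called higher and lower were 8.33% and 16.7% in ob/ob vehicle mice (9.02% and 5.05% of all rows). In VE mice they were 16.7% and 8.33% (12.4% and 7.58% of all rows). Of 9 regulators of nuclear genes for mitochondria, Myc and Gabpb1 were above wild type in ob/ob vehicle mice, by 1.44 and 0.82, and Myc was higher in VE mice by 1.21. These were 22.2% and 11.1% of the list in the 2 comparisons, and 0 were lower. When wild type arrays 1 and 2 were left out, Ssbp1 differed by -1.52 and -1.44 in ob/ob vehicle and VE mice, and Tefm by 1.03 and 1.28. In ob/ob vehicle mice Tfam, Myc and Gabpb1 then differed by -0.91, 0.79 and 0.65, and in VE mice Tfb2m and Myc by 0.96 and 0.55. Polg2, at -0.82 and -0.89 with all 9 arrays, was then at -1.86 and -1.93, and Ppargc1a moved from -2.00 to -4.08 in both groups. None of the lists had a call between VE and ob/ob vehicle. There the medians were 0.18 for assembly, 0.12 for translation factors, 0.02 for transfer RNA charging, 0.14 for mitochondrial DNA and -0.21 for the regulators, against 0.40 for the 76 members and -0.02 for all rows.

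**Figure D4:**
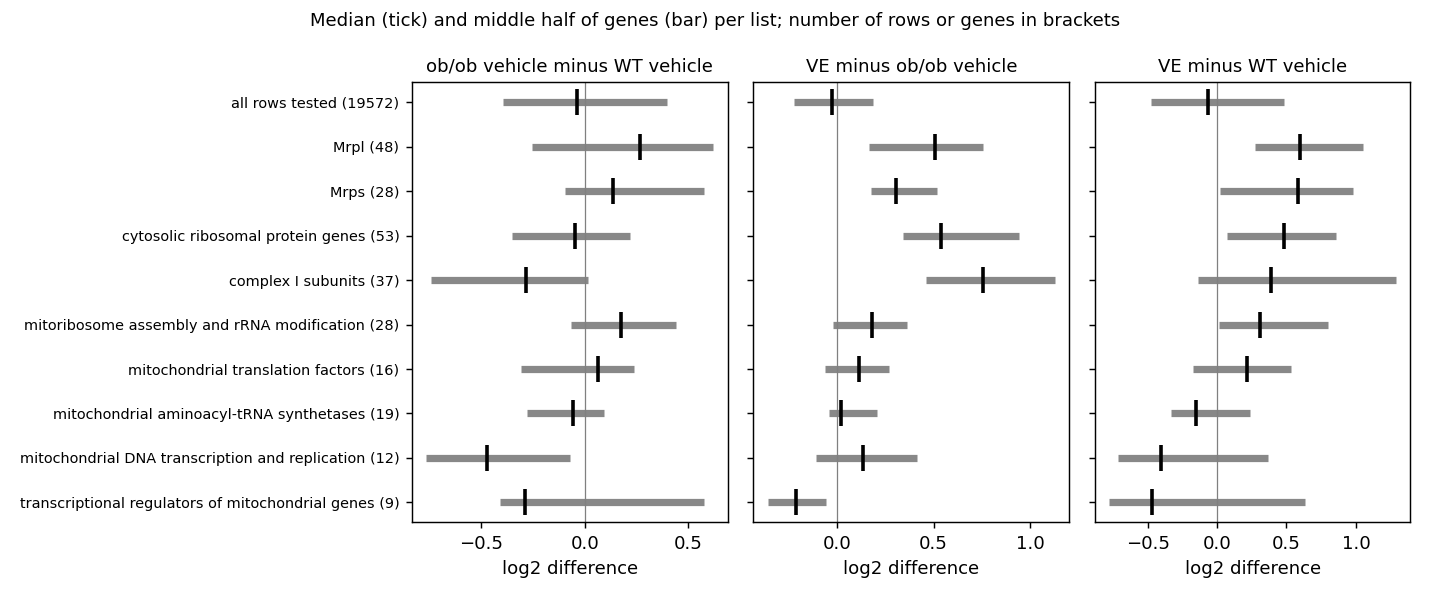
Median log2 difference (tick) and the range from the first to the third quartile (bar) of each list in the 3 comparisons, with the number measured in brackets. Between VE and ob/ob vehicle mice the Mrpl and Mrps genes, the cytosolic ribosomal protein genes and the complex I genes lie to the right of 0, and the median over all rows is at -0.02.

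Positive medians between VE and ob/ob vehicle were also found in other lists. The 53 measured cytosolic ribosomal protein genes had a median of 0.54 there and the 37 complex I genes one of 0.76. The complex I list was drawn by symbol alone, so not every gene in it need encode a subunit of that complex. limma called 0 genes in both lists, and at an unadjusted p under 0.05 there were 20 genes higher and 0 lower in each, against 2.91% and 1.66% of all rows. In ob/ob vehicle against wild type mice these lists had medians of -0.05 and -0.28. There 0 cytosolic genes were higher and 1 lower (Rpl19, at -1.02), and 0 complex I genes were higher and 7 lower (18.9%, against 5.05% of all rows). In VE against wild type mice 10 cytosolic genes were higher and 0 lower (18.9%), and 12 complex I genes were higher and 5 lower (32.4% and 13.5%), against 12.4% and 7.58% of all rows. Ndufa4 is among the 7 lower and Ndufa4l2 among the 12 higher, and their place in complex I was not checked. Without wild type arrays 1 and 2, Rpl19 differed by -1.08 in ob/ob vehicle mice. The medians of the cytosolic and complex I lists were then 0.11 and -0.33 in ob/ob vehicle against wild type mice. In VE against wild type mice they were 0.55 and 0.34. Both lists showed the same order of ob/ob vehicle arrays as the members, with centred medians of 0.26, -0.54 and -0.32 for the cytosolic genes and 0.09, -0.70 and -0.49 for complex I. The lists were not tested against each other.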

How the data were processed

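White adipose tissue of 9 mice (3 groups of 3 arrays) was measured on Clariom S arrays. The authors deposited 1 log2 value per row and array. Per the series text these were normalized by SST-RMA (a robust multi-chip average) in Transcriptome Analysis Console 4.0.2, while the submitters' processing notes give that tool as version 4. The genome build, hybridization order and detection calls were not given in the sources used here. No separate culture or extraction is described beyond 3 mice per group.

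Values were used as deposited. Of 22206 rows, 2634 carry no symbol and were left out of the tests. All 19572 others matched RefSeq names (GRCm38.p6). limma 3.58.1 in R 4.3.3 was fitted to 3 group means over 9 arrays and moderated by eBayes (4.02 prior degrees of freedom), two-sided, with Benjamini-Hochberg adjustment over the 19572 rows. SE is that of the log2 difference and SD that of 3 arrays. An exact permutation test of 3 against 3 arrays has a smallest p of 0.1. The scripts were tested on simulated data.

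The members, lists and alternatives were chosen with earlier results of these data known. Named per comparison were the 8 largest called differences in each direction without overlap (filled by smallest p to 5), the 2 highest and 2 lowest statistics of Mrpl and of Mrps, the 3 highest and 3 lowest means, and Mrps18a, Mrps18b, Mrps18c, Mrps30, Mrps36 and Mrpl12. Other members called are listed by name. Alternatives covered the samples fitted, prior, weights, normalization, filter, threshold, subunit assignment, genomic span and leaving out arrays.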

Additional observations from a re-analysis of the deposited data

How the results depend on the processing

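The median difference of the members stayed positive in each comparison under every alternative run. The count of members called was 3, 0 and 17 in ob/ob vehicle against wild type, VE against ob/ob vehicle and VE against wild type. It was 1 and 1 in the first and second with only the 2 groups compared, where 1814 and 19 of all rows were called. Without empirical Bayes it was 1 in the first comparison (1675 of all rows). With array weights it was 1 and 2 in the first and second (2662 and 41 of all rows). At the submitters' threshold (unadjusted p under 0.05 and fold over 1.1) it was 13, 18 and 34, against 5555, 893 and 6630 of the 19572 rows. At an adjusted p under 0.1 it was 6, 2 and 31, against 3957, 17 and 5526 rows. At both thresholds the share of members was below that of all rows in the first comparison and above it in the others. Without wild type arrays 1 and 2 the median differences of the members were 0.05, 0.40 and 0.415. The median difference of VE from wild type was 0.37 after quantile normalization and 0.415 without those arrays, and the F test passed 10 and 8 members in place of 16. The Mrpl median minus the Mrps median was 0.13, 0.20 and 0.02 in the 3 comparisons. In the first it was 0.0348 with array weights and 0.0117 without wild type arrays 1 and 2, and in the third 0.25 after quantile normalization. The cause was not tested.

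Leaving out 1 array at a time gave 0 to 5, 0 to 2 and 10 to 22 calls, medians of 0.02 to 0.30, 0.25 to 0.61 and 0.48 to 0.73, Mrpl minus Mrps values of -0.0142 to 0.13, 0.0292 to 0.20 and -0.0617 to 0.20, and 6 to 19 members by the F test. The sign of the subunit difference was therefore not stable in 2 of the comparisons. With the replicate number as a block, 3 (2 higher, 1 lower), 0 and 16 members were called. Residuals of same-numbered arrays correlated between -0.06 and 0.18, and those of differently numbered arrays between -0.27 and 0.16. No pairing by number was seen in these values, and a shared order of handling was not tested. With 3 arrays per group and no detection calls, members of low signal cannot be told from background.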

Other observations

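A start on the opposite strand lay close to that of many members, and the partner genes were read beside them (those named were chosen after their values were seen). Mrpl57 and the spindle gene Ska3 start 76 bases apart. Ska3 was above wild type in ob/ob vehicle mice by 1.33 (limma adjusted p = 0.0250), where Mrpl57 differed by 0.75, while in VE against wild type mice Mrpl57 was higher by 1.88 and Ska3 differed by 0.76. Without wild type arrays 1 and 2 Ska3 differed by 1.64 in the first comparison. Mrps7 and Gga3, a sorting adaptor, start 224 bases apart, and Gga3 was higher in both ob/ob groups than in wild type mice, by 1.05 and 0.96, where Mrps7 differed by 0.57 and 0.78. Without those arrays Gga3 differed by 1.22 and 1.13. Mrpl43 starts 116 bases from Twnk, the mitochondrial DNA helicase, which differed by -0.49 in VE against wild type mice while Mrpl43 was higher by 1.63. Mrpl46 and Mrps11, the pair of members that start 42 bases apart, differed by 0.51 and 0.48 there, and neither passed.

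Members were also read by the core motifs in their promoter windows, and the order of those with and without a motif was not the same in every comparison for NRF1 and ETS. In VE against ob/ob vehicle mice the median difference was 0.32 for the 7 with an NRF1 core and 0.48 for the 60 without, 0.49 for the 24 with an ETS core and 0.32 for the 43 without, and 0.30 for the 8 with a YY1 core and 0.41 for the 59 without. In ob/ob vehicle against wild type mice they were 0.52 and 0.14 for NRF1, 0.12 and 0.30 for ETS, and -0.08 and 0.30 for YY1. In VE against wild type mice they were 0.72 and 0.52 for NRF1, 0.805 and 0.50 for ETS, and 0.26 and 0.60 for YY1. These are descriptions without a test.

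The difference between VE and ob/ob vehicle mice was read against genomic span: across the 76 genes, which are not independent replicates, Pearson's r with log2 genomic span was -0.34 (Spearman's rho -0.28), against -0.01 over all rows (rho 0.00). The 38 members of shorter span had a median of 0.43 and the 38 of longer span one of 0.34. With each array's trend on log span removed, the median of all members was 0.39.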
